A study of Mus musculus with 9 samples.

Results

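Cardiomyocyte nuclei with a low level of Ankrd1 numbered 8276 of the 49171 nuclei in the series, or 16.83%. They were chosen in the tables of all 9 hearts by 3 conditions. At least 4 of the 8 cardiomyocyte genes Mhrt, Myh7b, Kbtbd12, Fhl2, Rbm20, Ldb3, Rnf207 and Ctnna3 had to be above 0. At most 2 of the 9 genes Pecam1, Flt1, Ptprb, Dcn, Pdgfra, Abca8a, Csf1r, Mrc1 and Adgre1, which mark endothelial cells, fibroblasts and macrophages, could be above 0. The Ankrd1 value had to be at most 2.5 on the deposited scale, a natural log of 1 plus the unique molecular identifiers (UMIs) of a gene per 10000 UMIs of the nucleus. A further 1699 nuclei met the first pair of conditions with Ankrd1 above 2.5, and are called high-Ankrd1 cardiomyocytes here.

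Nuclei came from frozen hearts of C57BL/6 mice, from the tissue below the level of the ligature, and were profiled by droplet single-nucleus RNA sequencing (sNuc-seq, 10x 3′ v3 chemistry). Sham mice (n = 3) received vehicle by gavage for 7 days, and a needle was then passed under the left anterior descending coronary artery without tying it. I/R mice (n = 3) received the same vehicle for 7 days, then 30 min of ligation and 24 h of reperfusion. SBP mice (n = 3) were given Shexiang Baoxin Pill (a traditional Chinese medicine, MUSKARDIA by its label) over the 7 days, and then underwent ligation and reperfusion as in I/R. Each library came from 1 mouse, and the hour of the day at which hearts were taken is not given in the sources used here.

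Cardiomyocytes contract through sarcomeres, in which myosin of the thick filament pulls on actin of the thin filament between Z discs, while titin spans the filament from Z disc to M band. They live mainly on fatty acids, hold calcium in the sarcoplasmic reticulum, and repolarize through potassium channels. Ankrd1 encodes cardiac ankyrin repeat protein, which binds the spring region of titin and acts in the nucleus as a cofactor of transcription. Its transcript is well known to rise in heart muscle under stretch, pressure load and injury, together with the natriuretic peptide genes Nppa and Nppb. A low level of Ankrd1 therefore picks out the cardiomyocytes in which this stress transcript was little seen.

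The members carried the transcripts expected of heart muscle. Ttn (titin) gave 77.8 UMIs per member nucleus as a mean of the 9 mice, against 1.45 in the 22282 nuclei with at most 1 of the 8 cardiomyocyte genes. Ryr2 (the calcium release channel) gave 57.7 UMIs per member against 1.16. Because droplets also capture free RNA, shares of nuclei with a UMI were set beside nuclei in which endothelial genes were seen (at least 2 of Pecam1, Flt1 and Ptprb, no other marker of the 9 and at most 1 cardiomyocyte gene). After every nucleus was thinned to 1000 UMIs, Ttn was seen in 96.6% to 99.1% of members across mice and in 39.9% to 87.5% of the endothelial-gene nuclei. Ryr2 was seen in 93.4% to 98.5% of thinned members and in 31.1% to 69.4% of thinned endothelial-gene nuclei. Members had a median of 3053.5 to 5571 UMIs per mouse, nuclei with at most 1 cardiomyocyte gene 1200 to 1674 and endothelial-gene nuclei 995 to 1267. UMIs per nucleus were not scaled for this depth. Both kinds of comparison nuclei were chosen for few cardiomyocyte genes, so a gap in Ttn and Ryr2 follows in part from the choice.

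Ventricular markers were present in the members, and defining atrial markers were at or near 0. Sums are given as CPM, the UMIs of a gene or list per 1000000 UMIs of the members of 1 mouse after scaling by trimmed means. The 5 ventricular markers measured (Myl2 and Myl3 among them) summed to between 1040 and 2880 CPM. The 7 of 8 atrial markers measured summed to between 38.2 and 88.4 CPM, with Sln at 0 in all 9 mice and Myl7 at 0.000146 UMIs per nucleus. The atrial marker Bmp10 was not among the genes measured. Among the markers of other cell types, those of macrophages summed to 103 to 136 CPM in sham, 200 to 512 in I/R and 127 to 259 in SBP members. Neutrophil markers summed to 6.52 to 13.9 CPM in sham, 31.2 to 118 in I/R and 21.0 to 48.8 in SBP members. Endothelial markers (81.0 to 214 CPM) and fibroblast markers (185 to 591 CPM) were present in every mouse. Smooth muscle and pericyte markers summed to 246 to 453 CPM. They had 1.41 to 2.68 UMIs per member, more than the 0.287 to 0.639 in nuclei with at most 1 cardiomyocyte gene, without scaling for depth. That list holds Abcc9, which is also in the list of channel genes below. Levels in members therefore include any RNA of other cells that entered their droplets.

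The libraries held 10329520 to 18205985 UMIs each, of which the members took 2243571 to 8879172. Of 48881 distinct barcodes, 290 occurred in more than 1 library, and each of the 36 pairs of libraries shared between 4 and 14. I/R replicate 1 stood nearer to the sham libraries than the other I/R mice did in several cardiomyocyte genes, and the counts of called genes are given with and without it.

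The members made up 27.8%, 24.2% and 24.7% of all nuclei in sham replicates 1, 2 and 3. In I/R the shares were 14.3%, 7.97% and 15.8%, and in SBP they were 8.66%, 13.8% and 14.8%. The mean was 25.57 ± 1.946% for sham, 12.67 ± 4.148% for I/R and 12.42 ± 3.294% for SBP hearts (SD, n = 3). Every sham heart lay above every heart with ischemia, and the I/R and SBP ranges overlapped. No test was made, because the rule itself uses Ankrd1.

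Among cardiomyocyte nuclei, the part with low Ankrd1 was 96.4%, 97.5% and 95.4% in sham. It was 87.7%, 51.3% and 82.2% in I/R and 52.1%, 76.4% and 80.0% in SBP. The number of high-Ankrd1 nuclei was 47, 36 and 66 in sham, 128, 392 and 194 in I/R and 404, 242 and 190 in SBP. I/R replicate 2 and SBP replicate 1 thus held about as many high as low nuclei, with 413 and 439 members.

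**Figure D1:**
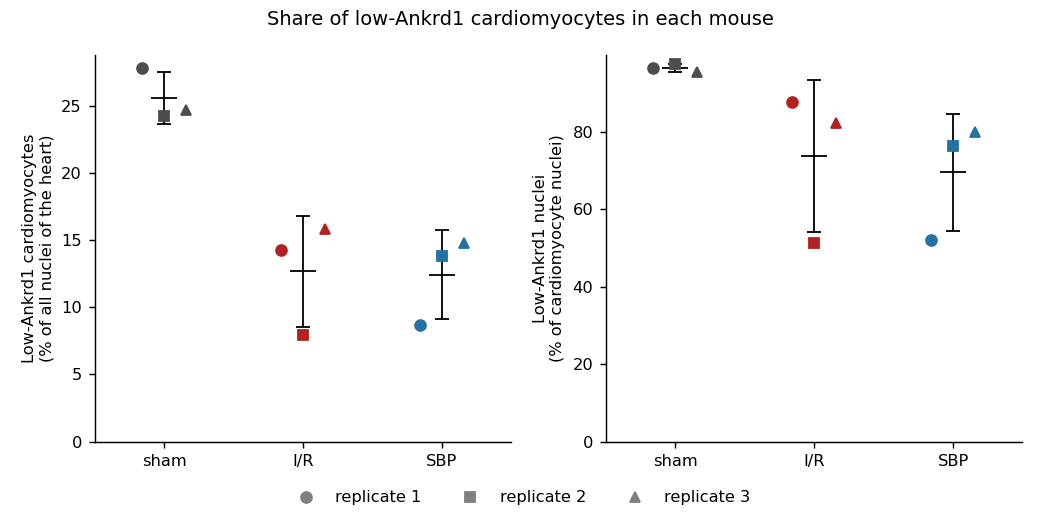
Low-Ankrd1 cardiomyocytes as a percentage of all nuclei of a heart (left axis panel) and of its cardiomyocyte nuclei (right panel), with 1 point per mouse, marker shapes for replicate numbers and bars for the group mean and SD (n = 3). The 3 sham hearts sit between 24.2% and 27.8% on the left, above all 6 hearts with ischemia (7.97% to 15.8%).

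Within the members Ankrd1 itself was at 0 in 78.9%, 76.0% and 61.9% of the nuclei of sham mice, 78.5%, 42.6% and 59.3% of those of I/R mice and 43.7%, 53.5% and 56.5% of those of SBP mice. Its summed level was 103.6, 94.3 and 157 CPM in sham, 88.9, 292 and 198 CPM in I/R and 327, 202 and 241 CPM in SBP. I/R replicate 1 lay just below the sham range, and the other 5 hearts with ischemia lay above it. The highest member value was 2.4989 and the lowest value left out was 2.5003. Between 14 and 54 members of a mouse lay from 2.25 to 2.5, and between 19 and 49 left-out nuclei lay from 2.5 to 2.75.

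The 8 cardiomyocyte genes of the rule are described here without a test. Mhrt, an antisense RNA of the Myh7 locus, stood at 1227, 1090 and 1186 CPM in sham, at 1135, 177 and 782 CPM in I/R and at 183, 297 and 245 CPM in SBP. Fhl2 (a LIM protein that binds titin) stood at 8971, 6662 and 6992 CPM in sham, at 8885, 3287 and 3478 CPM in I/R and at 4831, 6015 and 6940 CPM in SBP. Ctnna3 (an alpha catenin of the intercalated disc) stood at 6029, 5566 and 5964 CPM in sham, at 6107, 3680 and 3638 CPM in I/R and at 5294, 5881 and 6005 CPM in SBP. I/R replicate 1 lay inside the sham range of Mhrt and Fhl2 and just above it in Ctnna3, while I/R replicates 2 and 3 lay below it in all 3 genes. Myh7b (a further myosin heavy chain) stood at 581, 316 and 423 CPM in sham, at 451, 93.5 and 207 CPM in I/R and at 170, 350 and 381 CPM in SBP. Rbm20 (a splicing factor of titin) stood at 5292, 4351 and 5238 CPM in sham, at 4860, 3430 and 3195 CPM in I/R and at 3392, 4616 and 4934 CPM in SBP. Rnf207 stood at 307, 410 and 244 CPM in sham, at 294, 131 and 145 CPM in I/R and at 257, 214 and 230 CPM in SBP. In these 6 genes I/R replicates 2 and 3 lay below all sham mice. The other 2 genes of the rule had no such order. Ldb3, a Z disc protein, had 1137 to 1722 CPM in sham, 1105 to 1630 in I/R and 1722 to 1788 in SBP. Kbtbd12 had 480 to 615 CPM in sham, 494 to 627 in I/R and 489 to 647 in SBP.

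Variation among the members of 1 heart was described gene by gene. The Fano factor, variance over mean of thinned UMIs between members, had a median of 1.067 over 2293 genes. The nuclear RNA Malat1 had the highest Fano factor, 11.6 (median of the mice), followed by Ttn at 4.54, Fhl2 at 3.97 and Ryr2 at 3.70. The further genes among the first 10 were Gm12381, Dmd (dystrophin), Pde4d (a cAMP phosphodiesterase), Rbpj, Cacna1c (the L-type calcium channel) and Myh6. The factor was not corrected for the level of a gene. Means of these 10 ran from 119.8 thinned UMIs (Malat1) to 0.5066 (Gm12381) and 0.1827 (Rbpj). Myh7 had a Fano factor of 2.23, with 1.08 to 4.46 across mice.

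The comparison of I/R with sham members asks what 24 h of reperfusion left in the cardiomyocytes that did not carry a high Ankrd1 level. Pdk4, which blocks pyruvate dehydrogenase and so the use of glucose, rose, and so did the clock activators Arntl and Clock. The clock repressors Per3 and Bhlhe41, the clock output factor Dbp, the glycolytic enzyme gene Pgam2 and the lipid droplet gene Fitm1 fell. Sums of UMIs per mouse were compared with limma on log2(CPM + 1), so fold changes understate those of low genes, and a gene was called at an adjusted p (Benjamini-Hochberg over all genes tested) of at most 0.05 with a log2 change beyond 0.25. Of 12448 genes, 34 were called, or 0.273%, with 26 higher in I/R (0.209%) and 8 lower (0.0643%). None of the 34 overlapped between the groups, as was the case for 14.5% of all genes tested, and 1459 genes had an unadjusted p below 0.05.

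Pdk4 (chromosome 6, 5483351 to 5496309, GRCm38) stood at 70.3, 277 and 111 CPM in sham and at 957, 1426 and 1980 CPM in I/R. The groups were far apart, with the lowest I/R mouse above the highest sham mouse. The log2 change was 3.42 (SE 0.53, limma adjusted p = 0.0316). In I/R hearts a member held 8.56 Pdk4 UMIs and an endothelial-gene nucleus 0.143, and the members of sham hearts held 0.733.

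Clock, whose protein pairs with that of Arntl, stood at 78.1, 63.4 and 73.8 CPM in sham and at 191, 182 and 161 CPM in I/R. Its log2 change was 1.30 (SE 0.19, limma adjusted p = 0.0160). Arntl (also called Bmal1) stood at 7.37, 6.83 and 7.87 CPM in sham and at 114, 57.3 and 64.6 CPM in I/R. Each I/R mouse lay several times above each sham mouse, with a log2 change of 3.19 (SE 0.37, limma adjusted p = 0.0120). Arntl had 1.77 times the UMIs per nucleus of nuclei with at most 1 cardiomyocyte gene, a factor not scaled for the greater depth of members.

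Per3 (chromosome 4, 151003652 to 151044665), a repressor of the clock, stood at 124, 146 and 129 CPM in sham and at 30.0, 35.8 and 53.8 CPM in I/R. It fell by 1.76 on the log2 scale (SE 0.23, limma adjusted p = 0.0120). Dbp (chromosome 7, 45705088 to 45710203), a transcription factor driven by the clock, stood at 68.4, 119 and 56.4 CPM in sham and at 5.55, 8.0 and 6.35 CPM in I/R. All I/R mice lay far below the lowest sham mouse, and Dbp fell by 3.37 on the log2 scale (SE 0.56, limma adjusted p = 0.0352). The Dbp gene overlaps Sphk2 on the opposite strand, and whether the authors' counting used strand was not given in the sources used here. Bhlhe41, a further clock repressor, fell by 1.14 on the log2 scale (SE 0.20, limma adjusted p = 0.0410), from 19.6, 22.8 and 23.0 to 9.61, 11.0 and 7.66 CPM.

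The clock genes as a list had 19 members tested, of which 2 rose and 3 fell, with a median log2 change of -0.90 against -0.05 over all genes tested. Nr1d1, Hlf, Tef and Ciart, all clock-driven or clock-repressing factors, had log2 changes of -1.40, -1.36, -1.24 and -2.73 with limma adjusted p of 0.0904, 0.0708, 0.0736 and 0.0761, and the groups did not overlap in any of the 4. Cry1 (0.63) was also separated without being called, while Per1 (0.50) and Cry2 (0.19) overlapped between groups. The endothelial-gene nuclei showed the same order of groups in Arntl and Dbp, with 0.0160 Arntl UMIs per nucleus in sham and 0.143 in I/R, and 0.115 and 0.0121 Dbp UMIs. These nuclei had medians of 995 to 1267 UMIs in all, against 3053.5 to 5571 in members. The values were not scaled for depth, so they do not show a weaker change there. The part of the hour of sampling in these values was not tested.

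**Figure D2:**
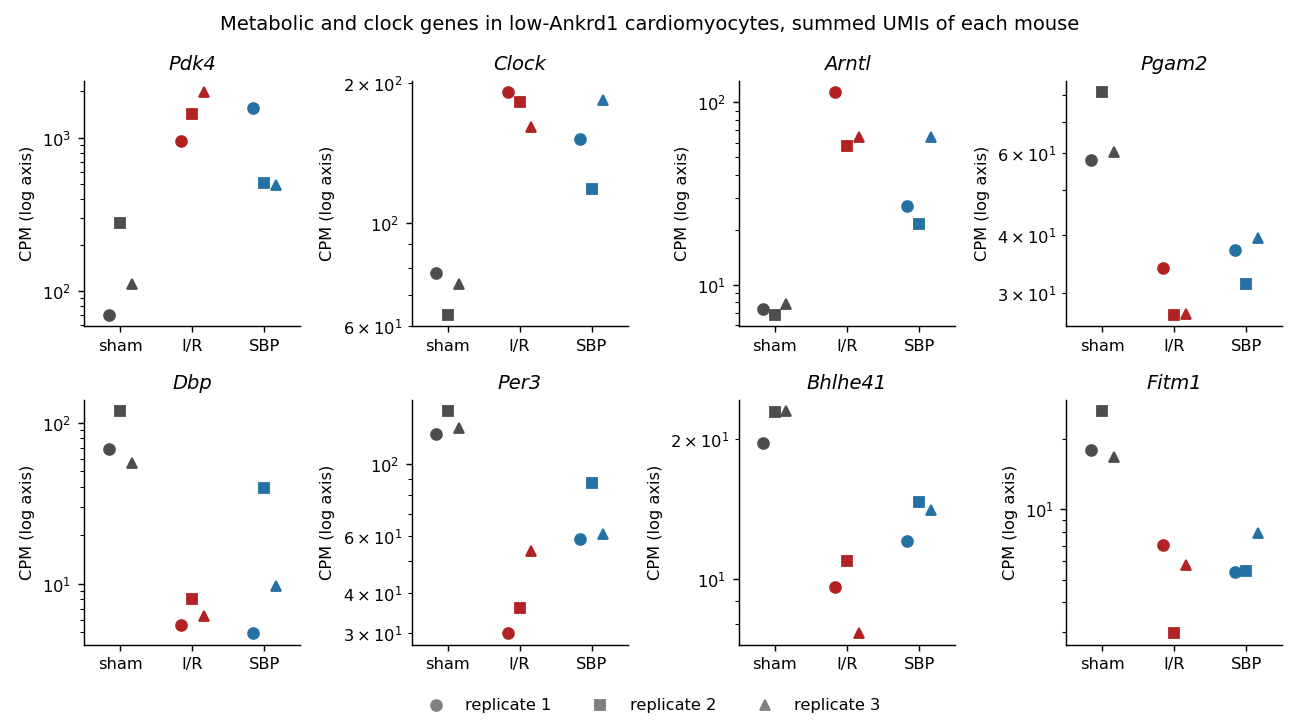
Level of 8 named genes in low-Ankrd1 cardiomyocytes, as CPM of the summed UMIs of each mouse on log axes, by group, with marker shapes for replicate numbers. Pdk4, Clock and Arntl lie higher in all I/R mice than in any sham mouse, and Pgam2, Dbp, Per3, Bhlhe41 and Fitm1 lie lower, with the SBP mice between or beside the I/R mice.

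Pgam2, Fitm1 and Paqr7 were the other genes that fell and had at least 2 times the UMIs per nucleus of nuclei with at most 1 cardiomyocyte gene. Pgam2, the muscle phosphoglycerate mutase of glycolysis, stood at 57.9, 81.2 and 60.5 CPM in sham and at 34.0, 27.0 and 27.1 CPM in I/R, a log2 change of -1.15 (SE 0.19, limma adjusted p = 0.0334). Fitm1, which helps to form lipid droplets in muscle, stood at 17.9, 26.4 and 16.7 CPM in sham and at 7.03, 2.95 and 5.79 CPM in I/R, a log2 change of -1.80 (SE 0.30, limma adjusted p = 0.0334). Paqr7, a membrane progestin receptor, fell from 6.74, 9.63 and 8.93 to 1.85, 1.68 and 0.934 CPM, a log2 change of -1.93 (SE 0.33, limma adjusted p = 0.0352). The groups did not overlap in these genes, and the members' levels per nucleus were 2.41 to 4.13 times those of nuclei with at most 1 cardiomyocyte gene. Members also had more UMIs in all, with medians of 3053.5 to 5571 against 1200 to 1674. The factors were not scaled for depth, so they do not show a larger share of the RNA of members.

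Most of the genes that rose were no cardiomyocyte genes. Of the 26, 2 (Pdk4 and Clock) reached 2 times the UMIs per nucleus of nuclei with at most 1 cardiomyocyte gene, and 20 had fewer UMIs per member than those nuclei. Within I/R hearts, 20 of the 26 stood at under 2 times the level of endothelial-gene nuclei, and 7 stood below it. Of the 8 that fell, 6 reached the factor of 2.

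Spp1 (osteopontin, made by injury macrophages) was at 0.21, 0 and 0 CPM in sham, which is 1 UMI in the group, and at 180, 10.5 and 27.1 CPM in I/R. Its UMIs per nucleus in I/R were 0.429 in members, 0.398 in endothelial-gene nuclei and 0.605 in nuclei with at most 1 cardiomyocyte gene, and its fitted log2 change of 5.19 (SE 0.86, limma adjusted p = 0.0365) depends on the pseudocount. Lgals3 (galectin 3) rose by 3.36 on the log2 scale, with 0.115 UMIs in members, 0.102 in endothelial-gene nuclei and 0.332 in the nuclei with at most 1 cardiomyocyte gene. Col1a1 (a fibroblast collagen) rose by 3.32 with 0.291, 0.247 and 0.592 UMIs in the same order. Hmox1 (heme oxygenase 1) rose by 3.46 with 0.0977, 0.0453 and 0.205 UMIs. Macrophage, neutrophil and fibroblast markers accounted for 7 of the 26 genes, and the part of free RNA in these rises was not tested. Mdga2 and Slc1a5, the 2 genes that fell without reaching the factor of 2, had log2 changes of -1.62 and -1.54.

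Lists of contractile and metabolic genes had few calls or none. The 26 genes of fatty acid uptake and oxidation had 0 called and a median of 0.38, with 21 above 0. The 22 nuclear-encoded genes of the respiratory chain had 0 called and a median of -0.52, with 21 below 0, and the 17 potassium, sodium and pacemaker channels 0 called and -0.50. Thick filament genes (8 tested, median -0.55), thin filament and Z disc genes (16, -0.29) and calcium handling genes (15, -0.25) had 0 called in each list.

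Among the lists of response genes, the 16 glucocorticoid-responsive genes had a median of 0.80 with Pdk4 and Cdkn1a (the cell cycle inhibitor p21, 2.57, limma adjusted p = 0.0166) called higher. The 14 antioxidant genes had a median of 0.75 with Hmox1 called, and the 16 acute phase and interferon genes a median of 0.96 with Timp1 (an inhibitor of metalloproteinases, 3.14, limma adjusted p = 0.0120) called. The 18 immediate early genes had a median of 0.62 with 0 called, and the 14 genes of heat shock and unfolded protein a median of -0.13 with 0 called. The 16 short cardiomyocyte mRNAs, which in nuclei may be carried over from the cytoplasm, had a median of -0.71 with Pgam2 called lower. The 20 genes that the study names in cardiomyocytes had 2 higher, Pdk4 and Col3a1, and a median of 0.10, and as the study chose them on these samples their count is not independent evidence.

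Of the genes that were to be named whatever their result, Actc1 (cardiac actin) had a log2 change of -1.09 (SE 0.34, limma adjusted p = 0.276). Nppb had 1.13 (SE 0.50, limma adjusted p = 0.412), Nppa -0.24, Ttn -0.38 and Ryr2 -0.25. Slit3, Kcnd2, Fkbp5 and Zbtb16 lay between -0.16 and 0.14. None of these was called.

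How many genes were called depended on single hearts. Without I/R replicate 1, 556 of 12228 genes were called (4.55%), 244 higher (2%) and 312 lower (2.55%), and without I/R replicate 3 there were 59. Without sham replicate 2 there were 9, and without sham replicate 1, sham replicate 3 or I/R replicate 2 there were 0, with 988, 1124 and 821 genes at an unadjusted p below 0.05. Arntl, Clock and Per3 were called in 17 of the 21 alternative settings, with adjusted p up to 0.0942, 0.111 and 0.0755, Pdk4 in 13 (up to 0.156) and Dbp in 11 (up to 0.141). Bhlhe41 was called in 3, Pgam2 in 7 and Fitm1 in 8, with adjusted p up to 0.357, 0.25 and 0.212.

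I/R replicate 1 was the I/R heart nearest to sham in several genes, so leaving it out widens the difference by the choice of the heart, and the genes of this setting are given as a description. Among the clock genes (19 tested) Arntl and Clock were again higher and Per3, Nr1d1, Dbp, Tef, Hlf, Ciart and Bhlhe41 lower. Called higher were 7 of 14 antioxidant genes, 5 of 18 immediate early genes and 7 of 15 acute phase genes, among them Gclm (1.84, for glutathione synthesis), Atf3 (2.96, a stress transcription factor) and Stat3 (1.49, a signal transducer of the interleukin 6 family). Markers of other cell types were called higher beside them, 7 of 13 of macrophages, 2 of 3 of neutrophils and 3 of 11 of fibroblasts, and their part in these values was not tested. In the I/R heart left out, Atf3 stood at 0.925 CPM beside 0.632 to 1.53 in sham, and at 13.1 and 18.1 CPM in the other I/R hearts.

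Of the thick filament genes (8 tested) Mybpc3 (myosin binding protein C, -1.44) and Myl2 (the ventricular light chain, -1.25) were lower in this setting, of the thin filament and Z disc genes (16) Actc1 (-1.45), and of the channel genes (17) Kcnh2 (-1.30), Kcnip2 (-0.97) and Abcc9 (-0.79) among others. Myom2 of the M band was higher (0.86). Of the 26 fatty acid genes, 1 was higher and 1 lower, the carrier Cd36 (1.34) and the lipase Ces1d (-2.05). The enzyme genes Ckm (muscle creatine kinase) and Eno3 (muscle enolase) were lower, at -1.97 and -2.78.

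The comparison of SBP with I/R members asks what the drug changed in hearts with the same ischemia. No gene was called in these nuclei, 0% of the 12448 tested by limma, although 290 had an unadjusted p below 0.05 and 5.67% did not overlap between the groups. Without I/R replicate 1, 0 genes were called as well, with 668 at an unadjusted p below 0.05 and a lowest adjusted p of 0.265. None of the lists had a gene called, and the median over all genes tested was 0.02. The list medians lay to either side. The 16 acute phase genes stood at -0.51 with 2 above 0, the 16 glucocorticoid-responsive genes at -0.52 with 3 above 0, and the 13 macrophage markers at -0.63 with 0 above 0. The 3 neutrophil markers stood at -0.83. The 8 thick filament genes stood at 0.44 with 8 above 0 and the 16 thin filament and Z disc genes at 0.35 with 12 above 0. The 5 ventricular markers stood at 0.46 and the 4 atrial markers at 0.45. The 20 genes that the study names stood at 0.50 with 16 above 0, and were chosen by the study on these samples. Without I/R replicate 1 these lists lay to the same sides, with medians of -0.76 for the glucocorticoid-responsive genes, -0.41 for the macrophage markers (3 above 0), -1.31 for the neutrophil markers and 0.65 for the thick filament genes.

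The genes with the smallest unadjusted p were not called. Higher in SBP were Gm30262 (log2 1.21), Hsf4 (a heat shock transcription factor, 0.99), Gm48155 (2.09), Gm36670 (1.35) and Slit2 (a guidance ligand, 0.66). Lower were B2m (the light chain of class I histocompatibility molecules, -1.05), Klhl38 (-0.75), Nfkbia (an inhibitor of NF-κB, -1.21), Syn2 and Plekho2. Their unadjusted p lay between 0.000634 and 0.00321, and each had a limma adjusted p of 1.

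Of the genes called between I/R and sham, Pdk4, Per3, Dbp and Arntl are given here in SBP members. The SBP mean of each lay between those of sham and I/R, while single SBP mice varied. These genes were chosen for their difference between I/R and sham, which itself favours such an order, and the order was not tested. Pdk4 stood at 1560, 504 and 492 CPM in SBP, with SBP replicate 1 inside the I/R range and the others below it, a log2 change of -0.93 against I/R (SE 0.53, limma adjusted p = 1). Per3 stood at 58.7, 87.3 and 60.9 CPM, above every I/R mouse and below every sham mouse (0.80 against I/R, SE 0.23). Dbp stood at 4.93, 39.5 and 9.72 CPM, and Arntl at 26.9, 21.6 and 64.7 CPM, each overlapping I/R.

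Myh7, the slow or beta myosin heavy chain that replaces the fast alpha chain Myh6 in stressed mouse ventricle, had uneven levels within the groups. It stood at 289, 96.3 and 179 CPM in sham, at 99.3, 1481 and 111 CPM in I/R and at 2578, 2092 and 1814 CPM in SBP. All SBP mice lay above all I/R mice, and I/R replicate 2 stood nearer to the SBP mice than to the other I/R mice. The log2 change of SBP against I/R was 3.07 (SE 0.84, limma adjusted p = 1), and without I/R replicate 2 Myh7 was the 1 gene called.

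The balance of both chains can be read within a mouse. Myh7 made up 2.67%, 1.05% and 1.62% of the UMIs of both genes in sham, 1.11%, 48.2% and 1.56% in I/R and 43.0%, 25.4% and 21.5% in SBP. The fast chain Myh6 stood at 10560, 9047 and 10860 CPM in sham, at 8869, 1590 and 6980 CPM in I/R and at 3414, 6158 and 6607 CPM in SBP. After thinning, Myh7 was seen in 19.1%, 9.75% and 13.2% of sham members, in 9.55%, 50.4% and 10.4% of I/R members and in 60.3%, 60.4% and 53.6% of SBP members. In thinned endothelial-gene nuclei the shares were 15.2%, 0% and 3.73% in sham, 0%, 6.85% and 2.96% in I/R and 14.2%, 19.9% and 11.6% in SBP. The margin over these nuclei was smallest in sham replicate 1 and wide in I/R replicate 2 and in all SBP mice.

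**Figure D3:**
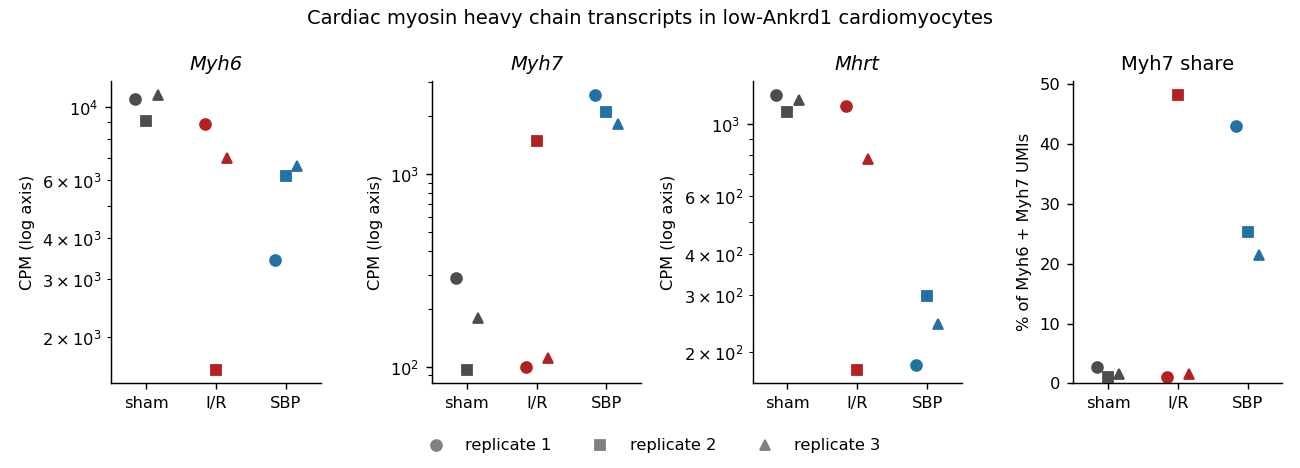
Levels of Myh6, Myh7 and the antisense RNA Mhrt in low-Ankrd1 cardiomyocytes (CPM of each mouse, log axes) and the percentage of Myh7 in the UMIs of Myh6 and Myh7 together. The percentage is 21.5% to 43.0% in the SBP mice, 48.2% in I/R replicate 2 and 1.05% to 2.67% in the other 5 mice.

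Myh7 (chromosome 14, 54970684 to 54994626) overlaps Mhrt (54968678 to 54974349) on the opposite strand, and Mhrt was lowest in the same 4 hearts, between 177 and 297 CPM. High-Ankrd1 cardiomyocytes of the same hearts had Myh7 shares of 13.4%, 1.02% and 3.80% in sham, 1.72%, 33.8% and 3.74% in I/R and 45.3%, 15.5% and 22.0% in SBP. The 4 hearts with the highest shares were the same in both kinds of nuclei. Actc1 was a further gene whose groups did not overlap, with 258, 308 and 316 CPM in SBP against 229, 82.5 and 140 CPM in I/R (log2 1.08, SE 0.34, limma adjusted p = 1), and its SBP values lay within the sham range of 204 to 423 CPM.

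Against sham, SBP members had 2 genes called, 0.0161% of those tested, while 21.5% of the genes did not overlap between the groups. Both comparisons use the same sham mice, so the values are set side by side only. Timp1 rose by 2.83 (SE 0.36, limma adjusted p = 0.0462) and Csf3r, the granulocyte receptor, by 2.04 (SE 0.27, limma adjusted p = 0.0462). In SBP hearts a member held 0.0490 Timp1 UMIs and an endothelial-gene nucleus 0.0546, and for Csf3r 0.0854 and 0.0638. The part of free RNA in both was not tested. Below the threshold, Myh7 had a log2 change of 3.64 (limma adjusted p = 0.146), Pdk4 one of 2.48 (0.139), Dbp -2.51 (0.144), Fitm1 -1.55 (0.101), Clock 1.05 (0.0954) and Nppb 1.87 (0.193). With the 6 mice of both groups alone 196 genes were called, and without I/R replicate 1, which is in neither group but in the estimate of the spread, 134 were called. Without sham replicate 1, 2 or 3 or SBP replicate 1 there were 0, without SBP replicate 3 there was 1, and without SBP replicate 2 there were 7.

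The nuclei most like the members are the high-Ankrd1 cardiomyocytes of the same hearts, and the comparison within mice asks what other genes went with Ankrd1. Members had less of the stress genes Nppb, Flnc, Xirp2, Ankrd23 and Tnfrsf12a, less of some thin filament and Z disc genes, and more of Adra1a, of the energy regulators Esrrb, Esrrg and Ppara and of the channel gene Kcnj3. Low and high sums were fitted with the mouse as a block (n = 9 pairs), without the 18 genes of the rule, among them Ankrd1, which had made the split. Of 11511 genes, 477 were called (4.14%), 317 higher in the members (2.75%) and 160 lower (1.39%). The median change over all genes was 0.13 on the log2 scale rather than 0, so values are to be read against it. When the larger sum of each mouse was thinned to the depth of the smaller, a step chosen after seeing the data, the median was 0.01 and 256 of 9535 genes were called (2.68%), 108 higher (1.13%) and 148 lower (1.55%). With each nucleus thinned to 1000 UMIs, which also moves nuclei between low and high (410 low and 244 high in I/R replicate 2), the median over all genes was 0.48 and 239 genes were called, 232 higher and 7 lower. The sham high sums came from 36 to 66 nuclei, and with the 6 mice with ischemia alone 1024 genes were called, 618 higher and 406 lower.

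Of the 21 genes of mechanical and hypertrophic stress tested, 15 were lower in the members and 0 higher, with a median of -0.64, and at equal depth the count was also 15 with a median of -0.75. These were not all the same genes, since Cryab was not called at equal depth (limma adjusted p = 0.154) and Nppa was. All 15 were lower in at least 8 of 9 mice, and 10 of them in 9 of 9.

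Nppb (brain natriuretic peptide, chromosome 4, 147985788 to 147987205) ranged from 8.58 to 80.9 CPM in the low sums, with a median of 53.7, and from 33.6 to 223 CPM in the high sums, with a median of 170. The ranges overlapped across mice, but within each of the 9 mice the low sum was below the high sum. The log2 change was -1.79 (SE 0.19, limma adjusted p = 0.000378), and Nppb was called in all 21 alternatives. Flnc (filamin C, which bundles actin at the Z disc) had a median of 56.0 CPM in low and 159 CPM in high sums, a log2 change of -1.33 (SE 0.15, limma adjusted p = 0.000378). Xirp2, an actin-binding protein of the intercalated disc, had medians of 397 and 1000 CPM, a change of -1.21 (SE 0.20, limma adjusted p = 0.00675).

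Ankrd23, a relative of Ankrd1 that also binds titin, had medians of 8.29 and 16.2 CPM and a change of -1.31 (SE 0.20, limma adjusted p = 0.00171). Uck2 (a kinase of the pyrimidine salvage path), Tnfrsf12a (the receptor of TWEAK) and Xirp1 had changes of -1.15, -1.12 and -0.82, each lower in 9 of 9 mice. Rcan1 (-0.71), a target and inhibitor of calcineurin, and the small heat shock protein Hspb7 (-0.64) were lower in 9 of 9 mice, as was Des (desmin, -0.51). Rrad, Enah, Fhl1, Csrp3 and Cryab, at -0.64 to -0.37, were lower in 8 of 9. Fhl1 had -0.03, 0.12 and -0.10 in the sham mice and -1.42 to -0.50 in the mice with ischemia, a difference that was not tested. Nppa had -1.95 (SE 0.65, limma adjusted p = 0.127) with high sums between 0 and 666 CPM, and was called at equal depth (adjusted p = 0.0133).

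Thin and thick filament genes were called to one side. Of 16 thin filament and Z disc genes 6 were lower and 0 higher, namely Pdlim3 (-0.91), Actc1 (-0.53), Tpm1 (tropomyosin, -0.49), Tnnc1 (troponin C, -0.45), Csrp3 (-0.43) and Pdlim5, and the same 6 were called at equal depth. Tpm1 had medians of 1090 and 1477 CPM and was lower in 9 of 9 mice. Pdlim5 had -0.175, 0.08 and -0.15 in the sham mice and -1.08 to -0.34 in the mice with ischemia, a difference that was not tested. Of the thick filament genes Mybpc3 (-0.39, SE 0.05, limma adjusted p = 0.000618) and Mybpc2 (-1.82) were lower. Of 15 intercalated disc genes 1 was lower and 1 higher, with a median of -0.05. Nrap, which joins actin bundles there, was lower by 0.64 on the log2 scale (SE 0.08, limma adjusted p = 0.000429), and Tmem65 was higher in 9 of 9 mice, by 0.18 to 0.84. At equal depth 4 of the list were lower (Gja1, Cdh2, Pkp2 and Nrap) and Tmem65 was again higher. Over the full sums Gja1 was higher in the members of every sham mouse (0.1178 to 0.2197). It was lower in those of every mouse with ischemia (-0.8914 to -0.3521), a difference that was not tested. Myom2, Cmya5 and Fsd2 of the titin and M band list were higher (0.26 and 0.25 for the first pair, list median 0.13), and none of them was called at equal depth, where Myom1 of the same list was called lower.

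Genes of energy supply were called to the other side. Of 13 transcriptional regulators of energy metabolism, 4 were higher and 0 lower, each in 9 of 9 mice, with a list median of 0.34. Esrrb (an estrogen-related receptor) had medians of 270 CPM in low and 182 CPM in high sums, a change of 0.61 (SE 0.08, limma adjusted p = 0.00105). Ppara (the receptor that switches on fatty acid oxidation) had 0.44, Ppargc1a (a coactivator of mitochondrial genes) 0.42 and Esrrg 0.33, and at equal depth Ppargc1a was not called (adjusted p = 0.0515). Of 26 genes of fatty acid uptake and oxidation 5 were higher and 0 lower, among them Ces1d (a lipase, 0.83), Slc27a1 (a fatty acid carrier, 0.44) and Hadha (of the mitochondrial trifunctional protein, 0.33), and these 3 were called at equal depth. Lpl and Acadm were not. The respiratory chain had 0 of 22 and calcium handling 0 of 15 called, with medians near 0. At equal depth they had 0 and 1 (Camk2d) called. Within calcium handling, Cacnb2 was higher in the members of every sham mouse (0.2112 to 0.3392). It was lower in every mouse with ischemia (-0.8309 to -0.4286), and was the 1 gene of the list called with the 6 mice with ischemia alone. Cacna1c had 0.09898 to 0.4233 in sham mice and -0.309 to -0.1055 in mice with ischemia. These differences between kinds of heart were not tested. Ldhb was the 1 gene of glucose use called (0.40).

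Receptors and channels that set the beat were also higher in members. Of 21 genes of growth factor and adrenergic signalling 7 were higher and 0 lower, with a median of 0.29. Adra1a, the alpha 1A adrenergic receptor, had medians of 350 and 223 CPM, a change of 0.61 (SE 0.08, limma adjusted p = 0.00103), and was higher in 9 of 9 mice. Pde4d (0.47), Pde3a (0.37) and Pde7a, phosphodiesterases that break down cyclic AMP, and Pik3r1 (0.50), a subunit of phosphoinositide 3-kinase, were called at equal depth as well.

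Of 16 potassium, sodium and pacemaker channels 5 were higher, with a median of 0.22. Kcnj3, a channel opened by G proteins, had medians of 603 and 342 CPM and a change of 0.83 (SE 0.15, limma adjusted p = 0.0072). Kcnip2, which supports the transient outward current, had 0.55 and was higher in 8 of 9 mice, and these 2 were also called at equal depth. Kcnd2 had 0.34 (SE 0.09, limma adjusted p = 0.0467) and -0.09 when only nuclei with Ankrd1 at 0 counted as low, so its direction depends on the threshold. Kcnj2 (0.61) and Abcc9 (0.45) were not called at equal depth.

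**Figure D4:**
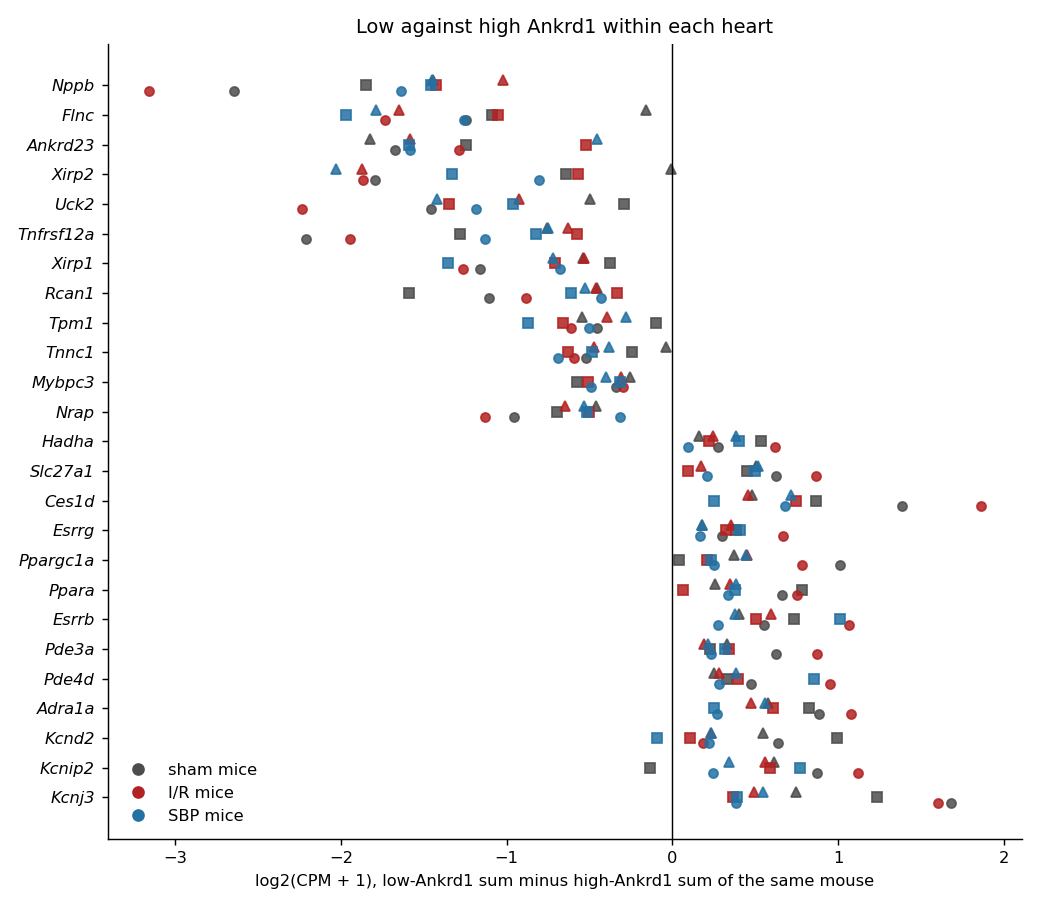
Difference in log2(CPM + 1) between the low-Ankrd1 and the high-Ankrd1 sum of the same mouse for 25 called genes, with 1 point per mouse, colours for groups and circles, squares and triangles for replicates 1, 2 and 3. Nppb, Flnc and the genes down to Nrap lie below 0 in all 9 mice, and of the genes from Hadha to Kcnj3 all points but 1 each in Kcnip2 and Kcnd2 lie above 0.

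The 10 called genes with the lowest values were Gm49808 (-3.19), Lrp8 (a lipoprotein receptor, -2.25), Gm36569 (-1.97), Card14 (-1.91), Mybpc2, Tgfb2 (the ligand transforming growth factor beta 2, -1.81), Nppb, Unc13c (-1.76), Serpina3i (-1.74) and Serpinb1c (-1.71). Tgfb2 had medians of 25.1 and 105 CPM and was lower in 9 of 9 mice (SE 0.21, limma adjusted p = 0.000429). Gm49808, Lrp8, Gm36569, Mybpc2, Tgfb2, Nppb and Serpinb1c were called at equal depth. Card14 differed between the kinds of heart, with 0.27, 0.56 and 0 in the sham mice and -3.42 to -2.45 in the 6 mice with ischemia, so the value over all 9 mice describes neither. Serpina3i and Serpinb1c were not lower in 2 of the 3 sham mice. The difference between sham mice and mice with ischemia was not tested in these genes. The low sums of Gm49808 and Lrp8 had medians of 0.964 and 2.30 CPM, against 17.8 and 15.4 CPM in the high sums.

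The 10 with the highest values were Slit2 (1.99), Cntn3 (1.65), Myof (1.57), Gm15886 (1.55), Crb1 (1.52), Zfp667 (1.41), Ramp1 (1.40), Gm15958 (1.40), Gm48155 (1.37) and Rp1 (1.37). None of the 10 was called at equal depth, where 6 of them fell under the filter on low genes, and the high sums of Cntn3, Gm15886, Gm15958 and Gm48155 had a median of 0 CPM. Slit2 had medians of 53.2 and 21.1 CPM (SE 0.48, limma adjusted p = 0.0380, and 0.0504 at equal depth). Its relative Slit3, from the genes to be named in any case, had medians of 79.3 and 43.1 CPM and a change of 1.21 (SE 0.19, limma adjusted p = 0.0029), which held at equal depth (adjusted p = 0.0203). Neither gene is enriched in the members, which held 0.459 Slit3 UMIs per nucleus against 1.73 in nuclei with at most 1 cardiomyocyte gene, and 0.324 Slit2 UMIs against 0.462. Fibroblast markers lay to the same side in this comparison, and their part in both values was not tested.

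Further lists had few calls. Rora was the 1 clock gene called, higher by 0.37, while Dbp had 0.07 and was higher in 6 of 9 mice. Osmr (-1.14, limma adjusted p = 0.0489) and Stat3 (-0.44, 0.0366) of the acute phase list were lower. Osmr had -0.05, 0.63 and -0.28 in the sham mice and -2.97 to -1.06 in the 6 mice with ischemia, and Stat3 0.14, -0.25 and -0.10 in the sham mice and -1.14 to -0.24 in the others, a difference that was not tested. Also lower were Gpx3 and Mt2 of the antioxidant list and Btg2 of the immediate early list. Klf9 was higher and Mt2 lower among the glucocorticoid-responsive genes, Meg3 was higher among the nuclear RNAs, and heat shock genes had 0 of 14 called. At equal depth Osmr, Klf9 and Meg3 were not called, while Rora, Stat3, Gpx3, Mt2 and Btg2 were. Of the markers of other cell types, 0 of 10 endothelial, 0 of 13 macrophage and 0 of 3 neutrophil genes were called, with medians of 0.18, 0.29 and 0.05 against 0.13 over all genes. Of 11 fibroblast markers, 10 lay above 0 with a median of 0.34, and Gpc6 (0.42) was called higher. Of 6 smooth muscle and pericyte markers Abcc9, also counted above among the channels, was called higher, and the median of the list was 0.43. At equal depth none of these markers was called, and the medians were 0.09 for fibroblasts and -0.25 for smooth muscle and pericytes. Of the markers of cardiomyocyte kinds, Mpped2 (ventricular) was higher, and Clu (atrial) and Cacna1g (conduction system) were lower. At equal depth Mpped2 was again called, and Clu and Cacna1g were not. The part of RNA of other cells in the comparison of low with high nuclei was not tested. Of the 21 genes that the study names in cardiomyocytes 5 were higher and 4 lower, chosen by the study on these samples. Pdk4 (0.20), Myh6 (0.11), Myh7 (-0.33), Ttn (-0.03), Ryr2 (-0.09), Fkbp5 (0.38) and Zbtb16 (0.14) were not called, with limma adjusted p between 0.0668 and 0.799.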

How the data were processed

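Nuclei of 9 mouse hearts were read as 9 tables of 23747 genes. Per the submitters' processing notes, the authors used Cell Ranger 4.0, STAR, the build GRCm38 and Seurat 3.2.0. The study's methods name other versions of Cell Ranger and Seurat, and state that poor nuclei and mitochondrial genes were removed. The authors deposited natural log values, ln(1 + 10000 × UMIs of the gene / UMIs of the nucleus), from which UMIs were recovered (at least 99.99954% whole within 0.1 UMI). The 49171 nuclei are fewer than the study states. None were removed here, and no doublet caller was run. The rule's limit on genes of other types stood in for one. UMIs of members were summed per mouse, scaled by trimmed means (30% of M, 5% of A) and tested as log2(CPM + 1) with limma 3.58.1 (R 4.3.3, trend and robust variances, 2-sided) over genes with the CPM of 10 UMIs in a median sum in 3 samples. All 9 samples shared 1 fit, sums needed 20 nuclei, and the 18 rule genes were not tested. The group comparisons have 3 mice a group, and their p-values set each difference against a spread between mice shared by all 9 samples. Those of low against high rest on 9 pairs of sums. On simulated sums with 200 changed genes, 84 were recovered at a log2 change of 1 and 199 at 2 for I/R against sham, and 116 and 181 for low against high. These sums had the same dispersion for every gene and no outlying heart, and only genes with a mean over 20 UMIs were changed. They do not give the recovery of genes with a wider spread between mice. Members, lists and tests were chosen with earlier results of these data known. Named were, per comparison, called genes without overlap between groups with the largest changes (10 each way with at least 2 times the UMIs per nucleus of nuclei with at most 1 cardiomyocyte gene, 5 each way of the rest; where under 5 were called, the 5 smallest p each way), list members, and 14 fixed genes, some of which are not reported here. Alternatives changed the scaling, pseudocount (5 CPM), filter, samples, replicate block, rule limits, depth (1000 UMIs) and scale. Positions are of GENCODE vM21 on GRCm38.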

Additional observations from a re-analysis of the deposited data

Results flagged for a closer look

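In the comparison of low with high Ankrd1 within a mouse, 33 named genes were looked at for groups that moved in opposite directions, and Ttn and Ryr2 did so. Ttn was higher in the low sum of every sham mouse (0.2458, 0.1615 and 0.1166 on the log2 scale) and lower in that of every I/R mouse (-0.1622, -0.04855 and -0.05189) and every SBP mouse (-0.1336, -0.1747 and -0.196). The group means differed by 0.2622 between sham and I/R and by 0.3428 between sham and SBP. Ryr2 was higher in the low sum of every sham mouse (0.3686, 0.1733 and 0.1683) and lower in that of every SBP mouse (-0.2934, -0.4565 and -0.1982), a difference of 0.5528, while the I/R mice went both ways (0.2485, -0.319 and -0.476). Genes outside the 33 were not looked at in this way, and Gja1, Cacnb2 and Cacna1c, given above, also had opposite signs in sham mice and mice with ischemia. These differences were not tested. The high sums of the sham mice came from 36 to 66 nuclei. Groups of 3 mice were not examined for single outlying values.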

How the results depend on the processing

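Named genes that were called kept their direction in all alternatives run with 2 exceptions, both low against high with nuclei at 0 for Ankrd1 as the low part, where Gm48155 had -0.353 and Kcnd2 -0.09129. Named genes that were not called changed sign in at least 1 alternative in 4 of 12 for I/R against sham, 7 of 24 for SBP against I/R, 4 of 22 for SBP against sham and 8 of 10 for low against high. Over the named genes and alternatives, I/R against sham kept its side of the threshold in 417 values, lost it in 145 and gained it in 2. For SBP against I/R the numbers were 496, 0 and 1, for SBP against sham 452, 28 and 21, and for low against high 490, 138 and 10.

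Genes called for I/R against sham (34) came to 22 with the 6 samples compared alone, 18 with Ankrd1 at 0, 6 with no gene of another type, 11 with nuclei thinned to 1000 UMIs and 5 with means of the natural log values. Leaving out 1 mouse gave 0 to 556. For SBP against I/R, 0 became 1 without I/R replicate 2 (range 0 to 1 over the mice). For SBP against sham, 2 became 0 by library size alone, with a pseudocount of 5, with Ankrd1 at 0, with no gene of another type, thinned and with means of natural log values, at an unadjusted p below 0.05 in 1482, 1453, 1143, 1005, 835 and 1166 genes. It became 1 without the filter on low genes and with Ankrd1 at most 2 or at most 3, 196 with 6 samples, and 0 to 134 leaving out 1 mouse.

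Low against high (477) gave 309 with Ankrd1 at most 3 and 184 with no gene of another type (8 mice each, since a sum needed 20 nuclei), 239 thinned, 256 at equal depth and 1024 with the 6 mice with ischemia, the last 2 chosen after seeing the data. Leaving out 1 mouse gave 274 to 601, with 274 without I/R replicate 1, 316 without I/R replicate 3 and 293 without SBP replicate 2. The cause was not tested, apart from fewer samples or genes where the setting itself reduces them (as few as 6294 genes tested, in low against high thinned to 1000 UMIs, and up to 21981 without the filter).

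Replicate numbers are shared by the groups, and the labels do not say that they pair mice. Samples with the same number had deviations correlated at -0.222 to 0.318 (9 pairs). Those with different numbers had -0.293 to 0.248 (18 pairs). So few correlations cannot decide whether a number stands for a shared batch, which was not tested. With the replicate block 26 genes were called for I/R against sham, 0 for SBP against I/R and 0 for SBP against sham (1467 at an unadjusted p below 0.05).

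Shares of members in sham (25.57%) came to 18.54% with Ankrd1 at 0, 9.673% with no gene of another type, 23.52% with at least 5 cardiomyocyte genes and 29.67% thinned. In I/R they were 7.981% with Ankrd1 at 0 and 3.929% with no gene of another type, and in SBP 6.513% and 4.42%. Depth limits low genes most, since the members of a mouse held as few as 2243571 UMIs.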
